A study of Mus musculus and blank sample with 191 samples.

Results

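The genes described here are 10 named symbols, and 10 of 10 were found among the 19962 targets of the count table. They are Ihh, Ptch1, Gli1, Nr2f2, Hand2, Areg, Bmp2, Gata2, Sox17 and Msx1, chosen as known genes of the exchange of progesterone and Indian hedgehog signals between uterine epithelium and stroma. The authors' filter kept 9 of the 10, and Areg was not among its 14881 targets.

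In the uterus, progesterone acts through its receptor in the epithelium and raises Indian hedgehog (Ihh), a secreted ligand. Ihh binds the receptor Ptch1 on stromal cells, which releases Smo and activates the Gli transcription factors, and Ptch1 and Gli1 are themselves targets that report the activity of the pathway. Downstream in the stroma, Nr2f2 (COUP-TFII), Hand2 and Bmp2 are known for restraining epithelial growth and for preparing the stroma for implantation.

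Spatial whole-transcriptome profiles (GeoMx) were taken from fixed uterus cores of 14 female mice. Regions were drawn by a pathologist on morphology with pan-cytokeratin and smooth muscle actin staining, and were labelled epithelium or stroma. Mucosa and glands share the epithelium label, and estrous stage is not given in the labels. Only the 95 regions of the first plate are used here, summed per mouse and compartment.

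The mutant mice carry 1 PV allele of Thra (PV/N, Thra1PV/+), a germline mutation that makes a dominant negative thyroid hormone receptor alpha 1 in every tissue that expresses it. The wild-type mice are N/N (WT). No other allele, drug or hormone treatment is named for either group. The 6 PV/N mice gave 31 epithelium and 21 stroma regions and were 2.4 to 6.3 months old. The 8 WT mice gave 29 epithelium regions, 7 of them also gave 14 stroma regions, and they were 4.0 to 9.0 months old, so age and genotype overlap only in part. Mice are numbered by age within genotype, PV1 to PV6 and WT1 to WT8, and WT4 has no stroma region on this plate.

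Total counts per region ran from 61690 to 3130397 (median 653387). All 95 regions of the first plate lay on the side of their label for 12 columnar epithelium genes against 10 fibroblast genes, while on the second plate 38 of 94 lay on the other side. PV2 had 1 region in each compartment and the lowest sums, 61691 counts in epithelium and 85336 in stroma, so its values for low genes rest on a few counts. Levels are CPM, counts scaled to the library size after TMM, and levels of different genes are not compared because each target has its own probe. The regions are small pieces of tissue, so fewer cells of a type and less RNA per cell cannot be told apart.

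Ihh, the ligand, lies on chromosome 1 at 74945315-74951672 on the minus strand (GRCm38, GENCODE vM21). In epithelium its level in PV/N mice was 47.2 CPM at the lowest, 67.6 at the median and 109 at the highest (n = 6). In WT epithelium it was 61.0, 112 and 216 CPM (n = 8). The WT values spread widely, since WT1, WT2, WT3 and WT5 lay at 143 to 216 CPM and the other 4 WT mice at 61.0 to 80.4 CPM, within the PV/N range.

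In stroma Ihh was flat by comparison. It ran from 50.0 to 66.0 CPM in WT mice (median 56.6, n = 7), and from 20.3 to 63.9 CPM in PV/N mice (median 54.1, n = 6), where the lowest value is PV2 with 2 counts. The counts stood above the negative probes in both compartments, at a median of 12.4 and 13.5 times the negative probe in PV/N and WT epithelium regions and 9.79 and 8.77 times in PV/N and WT stroma regions.

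Within mice, Ihh was higher in epithelium in 12 of 13 mice, PV1 being the exception. The log2 fold change of epithelium over stroma was 0.75 ± 0.17 (SE), with an adjusted p of 0.00104 in the quasi-likelihood test of edgeR. With the second plate added it was 0.29 and not called (edgeR adjusted p = 0.324). In WT mice it was 1.04 ± 0.22 (edgeR adjusted p = 8.5e-04, higher in 7 of 7). In PV/N mice it was 0.46 ± 0.26 (edgeR adjusted p = 0.157, higher in 5 of 6). The difference between these 2 changes, tested in 1 model, was -0.58 ± 0.34 with an adjusted p of 0.761 in edgeR, so a different gradient in PV/N and WT mice was not detectable.

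**Figure D1:**
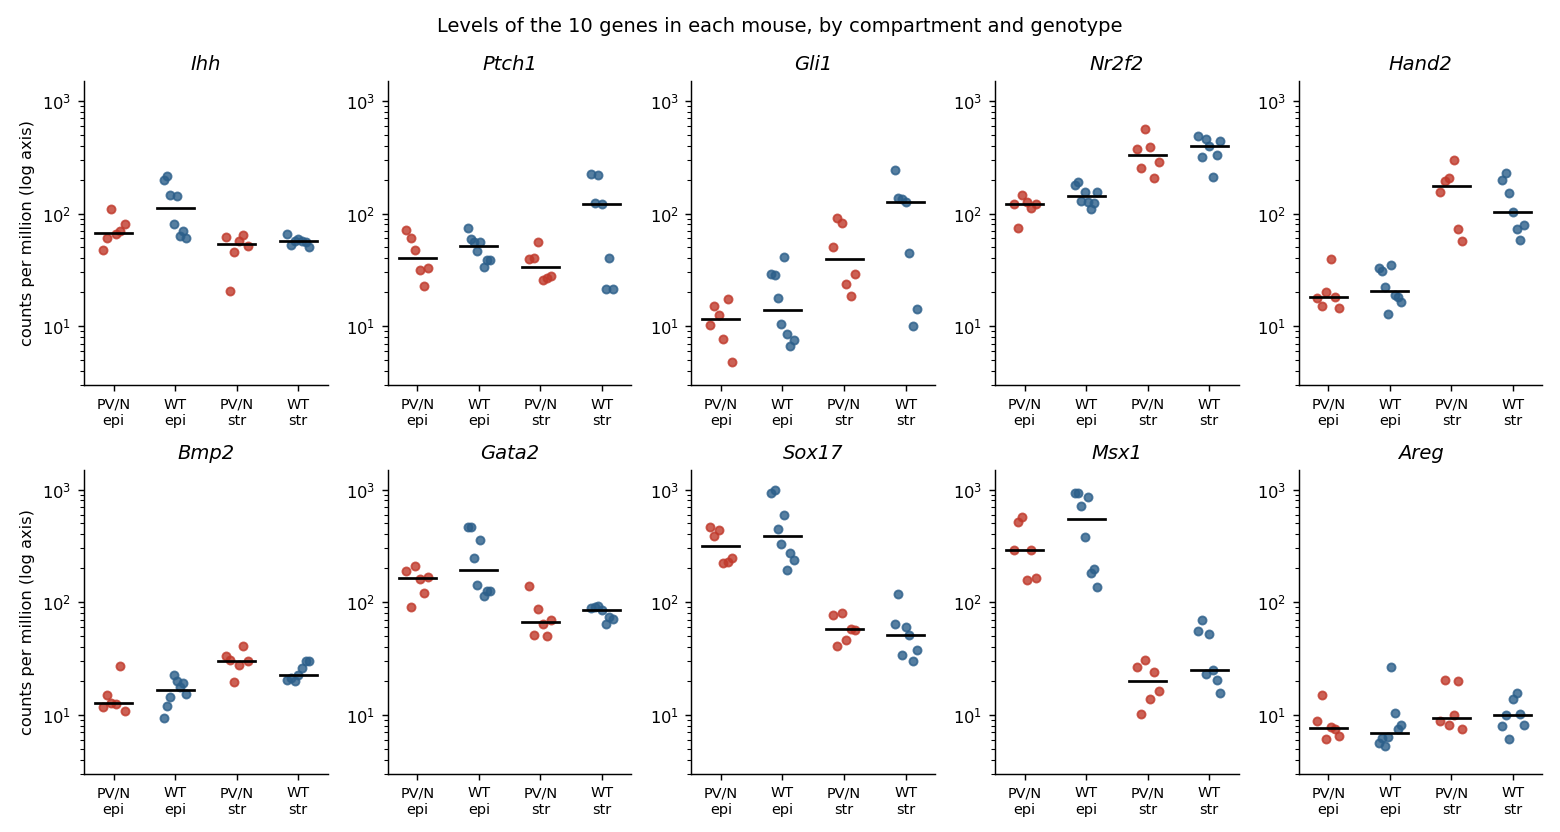
CPM (log axis) of each of the 10 genes in every mouse, in PV/N (red) and WT (blue) epithelium (epi) and stroma (str), with black lines for group medians and mice ordered by age from left to right in each group. Sox17, Msx1 and Gata2 are higher in epithelium, Gli1, Nr2f2, Hand2 and Bmp2 in stroma, and stromal Ptch1 spans 21.4 to 225 CPM in WT mice against 25.7 to 56.2 CPM in PV/N mice.

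Ptch1, the hedgehog receptor, lies on chromosome 13 at 63508328-63573598 on the minus strand. In stroma its level was 25.7, 33.8 and 56.2 CPM in PV/N mice (lowest, median, highest, n = 6). In WT stroma it was 21.4, 120 and 225 CPM (n = 7). The ranges overlap, because WT6, WT7 and WT8 had 21.4, 40.4 and 21.5 CPM while WT5, WT2, WT3 and WT1 had 120, 125, 220 and 225 CPM.

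In epithelium Ptch1 varied less, from 22.6 to 70.7 CPM in PV/N mice (median 40.0) and from 33.7 to 74.4 CPM in WT mice (median 51.0). Ptch1 was thus the member with no call between compartments over all mice, at a log2 fold change of -0.29 ± 0.21 (edgeR adjusted p = 0.253). In WT mice alone it was higher in stroma, at -0.72 ± 0.27 (edgeR adjusted p = 0.0343, in 5 of 7 mice). That call rests on few mice: without WT1, WT2, WT3 or WT5 the edgeR adjusted p was 0.135, 0.0952, 0.138 and 0.0828, and in DESeq2 with all mice it was 0.0794. In PV/N mice the change was 0.15 ± 0.33 (edgeR adjusted p = 0.742).

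Gli1, the transcription factor that hedgehog signalling itself induces, lies on chromosome 10 at 127329882-127341974 on the minus strand. Its stromal level was 18.5, 39.8 and 91.4 CPM in PV/N mice and 10.1, 127 and 241 CPM in WT mice (lowest, median, highest). The WT range encloses that of the mutants, with WT7, WT8 and WT6 at 10.1, 14.2 and 44.2 CPM and WT5, WT3, WT2 and WT1 at 127, 135, 137 and 241 CPM.

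In epithelium Gli1 was low, 4.83 to 17.2 CPM in PV/N and 6.72 to 41.2 CPM in WT mice. There it exceeded 3 times the negative probe in 3 of 31 PV/N and 14 of 29 WT regions, so much of its epithelial level is near the background of the assay. Gli1 was higher in stroma in 13 of 13 mice, with a log2 fold change of epithelium over stroma of -2.07 ± 0.21 (edgeR adjusted p = 1.66e-07).

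Nr2f2 encodes COUP-TFII, a nuclear receptor of the stroma that hedgehog signalling induces, and lies on chromosome 7 at 70351944-70366735 on the minus strand. Its stromal level was 207, 330 and 565 CPM in PV/N mice and 209, 398 and 490 CPM in WT mice. Its epithelial level was 75.1, 122 and 146 CPM in PV/N mice and 109, 142 and 190 CPM in WT mice. The compartments did not overlap, and Nr2f2 was 2.70-fold higher in stroma (log2 fold change -1.43 ± 0.11, edgeR adjusted p = 4.63e-09, 13 of 13 mice).

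Hand2, a stromal transcription factor that progesterone induces and that limits growth factor output towards the epithelium, lies on chromosome 8 at 57320983-57324633 on the plus strand. Its stromal level was 57.1, 175 and 299 CPM in PV/N mice and 58.1, 102 and 228 CPM in WT mice, and both ranges cover much the same span. In epithelium it was 14.5 to 39.2 CPM in PV/N and 12.7 to 34.6 CPM in WT mice. Hand2 was 5.82-fold higher in stroma (log2 fold change -2.54 ± 0.15, edgeR adjusted p = 8.80e-11, 13 of 13 mice).

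Bmp2, a secreted ligand needed for decidual change of the stroma, lies on chromosome 2 at 133552159-133562885 on the plus strand. Its stromal level was 19.7, 30.3 and 41.2 CPM in PV/N mice and 19.9, 22.5 and 30.3 CPM in WT mice. It stood close to background, at a median of 5.15 times the negative probe in PV/N stroma regions, 3.66 in WT stroma and about 2.6 in epithelium of either genotype. Bmp2 was 1.81-fold higher in stroma (log2 fold change -0.86 ± 0.11, edgeR adjusted p = 3.79e-06, 13 of 13 mice).

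Gata2, which cooperates with the progesterone receptor in the epithelium, lies on chromosome 6 at 88193891-88207032 on the plus strand. Its epithelial level was 90.1, 163 and 211 CPM in PV/N mice and 113, 195 and 469 CPM in WT mice. WT1, WT2, WT5 and WT3 lay at 469, 468, 354 and 247 CPM, above every PV/N mouse, and the other 4 WT mice at 113 to 142 CPM. In stroma Gata2 ran from 49.7 to 139 CPM, and it was 2.50-fold higher in epithelium (log2 fold change 1.32 ± 0.16, edgeR adjusted p = 8.35e-07, 13 of 13 mice).

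Sox17, an epithelial transcription factor known to act with Gata2 and the progesterone receptor on Ihh, lies on chromosome 1 at 4490931-4497354 on the minus strand. Its epithelial level was 222, 318 and 464 CPM in PV/N mice and 193, 390 and 992 CPM in WT mice. WT2, WT1 and WT5 had 992, 926 and 599 CPM and stood above every PV/N mouse. Stromal Sox17 ran from 30.3 to 119 CPM, and the gene was 6.54-fold higher in epithelium (log2 fold change 2.71 ± 0.15, edgeR adjusted p = 3.33e-11, 13 of 13 mice). Sox17 is also expressed by endothelium, whose 8 markers summed to 364 to 858 CPM in stroma and 81.1 to 195 CPM in epithelium; the part of these cells in its stromal level was not tested.

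Msx1, a homeobox factor of the epithelium that readies it for implantation, lies on chromosome 5 at 37820485-37824583 on the minus strand. Its epithelial level was 156, 291 and 575 CPM in PV/N mice and 136, 544 and 941 CPM in WT mice. WT2, WT1, WT5 and WT3 again stood highest, at 941, 923, 854 and 712 CPM, and WT8, WT6 and WT7 lay at 136 to 199 CPM. Msx1 was 13.3-fold higher in epithelium (log2 fold change 3.74 ± 0.17, edgeR adjusted p = 4.71e-12, 13 of 13 mice), the strongest contrast between compartments among the 9 members tested.

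Areg, an epidermal growth factor ligand that progesterone induces in the epithelium, lies on chromosome 5 at 91139599-91148432 on the plus strand. Its level was 6.12 to 15.0 CPM in PV/N and 5.24 to 26.7 CPM in WT epithelium, and 7.54 to 20.3 CPM in PV/N and 6.12 to 15.5 CPM in WT stroma. Its counts exceeded 3 times the negative probe in 2 of 31 PV/N and 3 of 29 WT epithelium regions and in 2 of 21 PV/N and 1 of 14 WT stroma regions, with group medians of 1.26 to 1.66 times. At this depth an Areg signal above background was not detectable in most regions, and no fold change is given for it.

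Across the 9 members tested, 4 were called higher in epithelium (Ihh, Gata2, Sox17 and Msx1) and 4 higher in stroma (Gli1, Nr2f2, Hand2 and Bmp2) at an adjusted p under 0.05. Of all 14881 targets, 28.6% were called higher in epithelium and 34.6% higher in stroma, so a call between compartments is common. The split over all targets depends on the scaling: 4259 were higher in epithelium and 5153 in stroma with TMM, against 3273 and 6411 with upper-quartile scaling, which moved the median log2 fold change of all targets from -0.05 to -0.19. The 8 calls kept their direction with that scaling. In PV/N mice alone 7 of 9 members were called, beside 49.4% of all targets, and in WT mice 9 of 9, beside 48.8%.

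**Figure D2:**
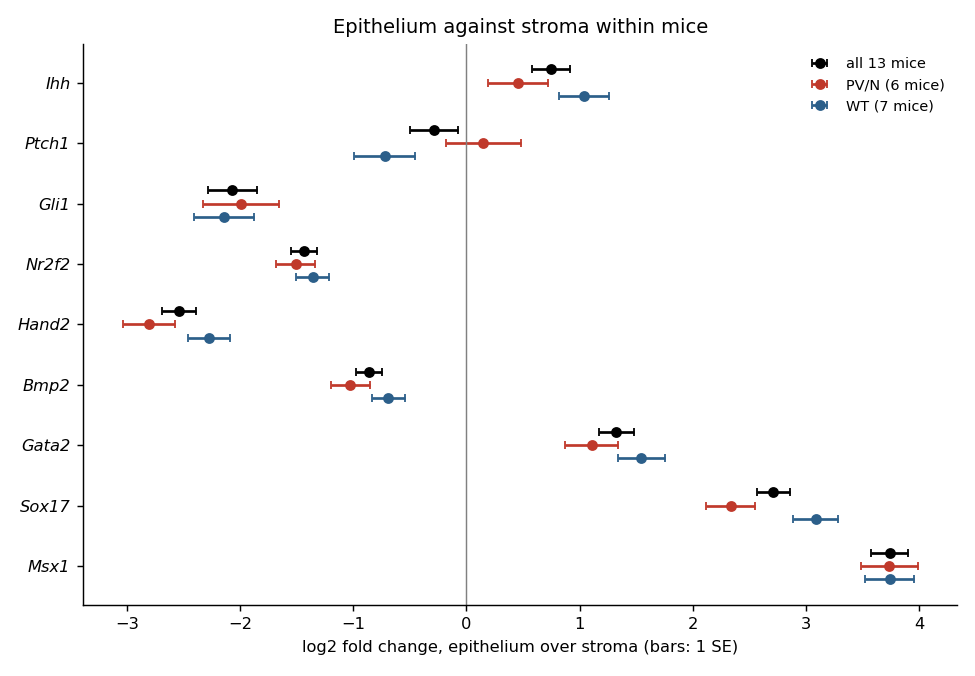
Log2 fold change of epithelium over stroma within mice (horizontal axis, bars of 1 SE, edgeR) for the 9 members tested, over all 13 mice (black), PV/N mice (red) and WT mice (blue). Msx1 at 3.74 and Hand2 at -2.54 mark the ends, the PV/N and WT points of Ihh lie at 0.46 and 1.04, and those of Ptch1 at 0.15 and -0.72.

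Other genes of the hedgehog pathway sat mostly in the stroma. Of 16 kept genes of a list of 19 other hedgehog genes, 13 were called higher in stroma and 0 in epithelium, with a median log2 fold change of -0.82 beside -0.05 over all targets. The 5 with the lowest p were Gas1, a hedgehog co-receptor (-2.72), the transcription factors Gli3 (-1.58) and Gli2 (-2.22), and the cilium proteins Evc (-1.70) and Evc2 (-1.32), each as log2 fold change of epithelium over stroma with an edgeR adjusted p under 0.05.

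Other lists were split. Of 15 kept genes for the progesterone receptor and its epithelial targets, 4 were called higher in epithelium and 4 in stroma. Fkbp4, a co-chaperone of the receptor, was higher in epithelium by 1.85, and Zbtb16, a progesterone-induced stromal factor, higher in stroma at -1.80. Of 11 kept stromal progesterone and decidual genes, 2 were higher in epithelium and 5 in stroma, the latter led by the homeobox genes Hoxa10 (-2.95) and Hoxa11 (-2.73). Of 13 kept FGF and EGF ligands and receptors, 6 were higher in epithelium and 4 in stroma, among them the receptors Erbb3 (2.47) and Erbb2 (1.79) in epithelium and Fgfr1 (-1.92) in stroma. Of 16 kept BMP genes, 4 were higher in epithelium and 7 in stroma, with the ligand Bmp4 at -0.90. Of 7 kept relatives of the members, 3 were higher in epithelium and 4 in stroma, with Msx2 at 2.07 like Msx1, and the endothelial factor Sox18 at -2.29 unlike Sox17.

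The progesterone receptor gene Pgr showed no call between compartments, at a log2 fold change of -0.32 ± 0.16 (edgeR adjusted p = 0.102). Its epithelial level was 71.9 to 239 CPM in PV/N and 38.9 to 322 CPM in WT mice. The difference between genotypes was 0.39 ± 0.45 in epithelium and 0.35 ± 0.50 in stroma (edgeR adjusted p = 0.869 and 1.00).

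The PV/N mice were next compared with WT mice within each compartment. In epithelium 0 of 9 members were called by edgeR at an adjusted p under 0.05, beside 0% of all targets. Neither DESeq2 nor limma called a member, while over all targets the calls were 28 by DESeq2, 0 by limma on the mean log2 Q3 value of each mouse and 1 by limma over regions with mouse as a random block, and 1223 targets had an unadjusted p under 0.05 in edgeR.

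All 9 tested members had a log2 fold change of PV/N over WT below 0 in epithelium (median -0.59 beside -0.01 over all targets), though Hand2, at -0.01, turned to 0.05 without the target filter and Bmp2, at -0.18, to 0.11 with both plates. Ihh had the lowest unadjusted p among the members, at a log2 fold change of -0.71 ± 0.31 (unadjusted p = 0.0365, edgeR adjusted p = 0.585). In an exact permutation test of the 14 mice its p was 0.0839, and its ranges in the 2 genotypes overlap. Ihh was the 1 member lower at an unadjusted p under 0.05, a level that 3.80% of all targets reached in that direction. Markers of cell types are given beside these values, and none was called by edgeR. Of 5 kept gland markers 4 had a log2 fold change below 0 (3 at an unadjusted p under 0.05, median -0.72). Of 12 columnar markers 10 had one above 0 (3 at an unadjusted p under 0.05, median 0.32). Both kept squamous markers had one above 0 (2 at an unadjusted p under 0.05, median 1.02). Of 10 fibroblast markers 9 had one below 0 (2 at an unadjusted p under 0.05, median -0.29). All 8 endothelial markers had one below 0 (2 at an unadjusted p under 0.05, median -0.18). Of 7 kept smooth muscle markers 4 were above 0 and 3 below, and of 5 kept immune markers 3 and 2. Their part in the members' values was not tested.

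For the other epithelial members the values were -0.65 ± 0.35 for Gata2, -0.59 ± 0.37 for Sox17 and -0.72 ± 0.47 for Msx1 (edgeR adjusted p = 0.641, 0.690 and 0.703). Gli1 in epithelium was at -0.84 ± 0.45 and Ptch1 at -0.29 ± 0.24. Nr2f2 in epithelium was at -0.27 ± 0.17. The SD of log2 CPM over mice was 0.75 for Ihh, 0.88 for Gata2, 0.89 for Sox17 and 1.17 for Msx1 in WT epithelium, and 0.40, 0.45, 0.50 and 0.79 in PV/N epithelium.

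In stroma the level of Msx1 was 10.2 to 31.0 CPM in PV/N mice and 15.5 to 69.2 CPM in WT mice, with 11 of 21 PV/N and 11 of 14 WT regions above 3 times the negative probe. The levels of Ptch1 and Gli1 there are given above. Of 9 members 0 were called by edgeR, again beside 0% of all targets. DESeq2 called 2 targets, limma 0 on means and 2 over regions, none of them a member, and 524 had an unadjusted p under 0.05 in edgeR. Ptch1 was at -1.61 ± 0.50 on the log2 scale, 3.05-fold lower in PV/N mice (unadjusted p = 0.00479, edgeR adjusted p = 1.00), with 6 of 6 PV/N mice under the median of WT. Its mean log2 CPM differed by -1.11 (exact permutation p = 0.105). Gli1 was at -1.18 ± 0.56 (unadjusted p = 0.0495, edgeR adjusted p = 1.00), while its mean log2 CPM differed by -0.60 (exact permutation p = 0.460). Msx1 was at -0.84 ± 0.35 (unadjusted p = 0.0248, edgeR adjusted p = 1.00, exact permutation p = 0.0950), which turned to 0.67 with both plates and 0.73 on the second plate alone. These 3 of 9 members were lower at an unadjusted p under 0.05, a level reached in that direction by 1.40% of all targets.

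The other stromal factors had values nearer 0 in their own compartment. Nr2f2 was at -0.10 ± 0.27, Hand2 at 0.37 ± 0.38 and Bmp2 at 0.28 ± 0.19 (edgeR adjusted p = 1.00 for each). The 95% interval for Nr2f2 ran from -0.63 to 0.42. Stromal Ihh was at -0.08 ± 0.17.

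Of the other 16 kept hedgehog genes, none was called between genotypes in either compartment by edgeR. In stroma 13 of the 16 had a log2 fold change below 0 (median -0.20 beside 0.01 over all targets), and 2 were lower at an unadjusted p under 0.05. Hhip, a decoy receptor that hedgehog induces and 1 of these, was at -0.64 ± 0.28 (unadjusted p = 0.0311, edgeR adjusted p = 1.00). In epithelium 12 of the 16 were below 0 (median -0.11), and 1 was lower at an unadjusted p under 0.05, the transcription factor Gli2 at -0.52 ± 0.24 (unadjusted p = 0.0437, edgeR adjusted p = 0.595). Hhip and Gli2 are named here after their values were seen.

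**Figure D3:**
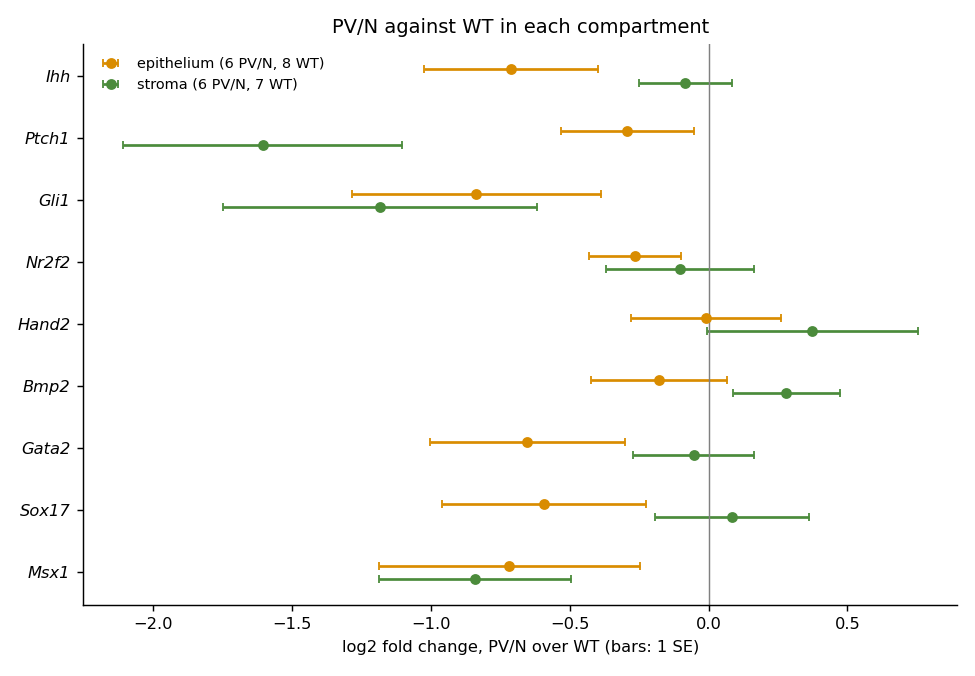
Log2 fold change of PV/N over WT (horizontal axis, bars of 1 SE, edgeR) for the 9 members tested, in epithelium (orange) and stroma (green). The epithelial points lie at or below 0 (Hand2 at -0.01, which turns to 0.05 without the target filter), the stromal points of Ptch1 (-1.61) and Gli1 (-1.18) lie farthest to the left, and 0 of the 18 changes passed the adjusted threshold.

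Age differed between the groups, since the WT mice reach 9.0 months and the PV/N mice 6.3. With age as a covariate the stromal change of Ptch1 was -2.17 ± 0.39 and that of Gli1 -1.97 ± 0.40 (edgeR adjusted p = 0.107 and 0.136). The epithelial change was -0.91 ± 0.29 for Ihh and -1.08 ± 0.30 for Sox17 (edgeR adjusted p = 0.251 and 0.190). No member passed the threshold with age. Over all 14881 targets, edgeR called 10 in epithelium with age (1 higher, 9 lower) and 0 in stroma. The part of age in the main values cannot be told apart from that of genotype over the ages where only 1 genotype was sampled.

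The genotype by compartment term asks whether the gap between epithelium and stroma differs between PV/N and WT mice. No member of 9 was called by edgeR, beside 0% of all targets; the calls over all targets were 1 by DESeq2, 0 by limma on means and 82 by limma over regions, and 1066 had an unadjusted p under 0.05. Sox17 was at -0.75 ± 0.28 (unadjusted p = 0.0163, edgeR adjusted p = 0.601, exact permutation p = 0.0693), from an epithelial excess of 2.33 in PV/N and 3.08 in WT mice on the log2 scale. It was the 1 member lower at an unadjusted p under 0.05, which 3.88% of all targets were. Ptch1 was at 0.87 ± 0.43 (unadjusted p = 0.0564, edgeR adjusted p = 0.707, exact permutation p = 0.103).

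The mice were then followed 1 by 1 through both compartments. WT1, WT2, WT3 and WT5, aged 4.0, 4.5, 5.0 and 6.3 months, had the 4 highest levels of epithelial Ihh, Gata2 and Msx1 among 14 mice and of stromal Ptch1 and Gli1 among 13. WT6, of the same age as WT5 at 6.3 months, had 63.2 CPM of epithelial Ihh against 143 CPM, and 21.4 CPM of stromal Ptch1 against 120 CPM. WT4, WT7 and WT8, aged 5.4, 7.4 and 9.0 months, had 80.4, 70.1 and 61.0 CPM of epithelial Ihh. Among PV/N mice PV3, aged 4.0 months, had the highest epithelial Ihh (109 CPM) and stromal Ptch1 (56.2 CPM). The summed level of 8 gland markers in epithelium was 1047 to 1372 CPM in WT1, WT2, WT3 and WT5, 609.8 to 987 CPM in the other 4 WT mice and 654 to 1408 CPM in PV/N mice. That of 6 immune markers was 65.3 to 107 CPM, 179 to 315 CPM and 79.6 to 315 CPM in the same order, and the part of either in the members' levels was not tested.

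In WT mice stromal Bmp2 ran the other way, at 19.9 to 22.5 CPM in those 4 WT mice and 25.8 to 30.3 CPM in WT6, WT7 and WT8. Pgr did not follow the same order in all mice, since WT5 had 55.8 CPM of it in epithelium and PV1, with the lowest epithelial Ihh at 47.2 CPM, had 239 CPM. Its epithelial level was highest in WT2 (322 CPM) and lowest in WT8 (38.9 CPM), which had the highest and lowest epithelial Ihh of the WT mice (216 and 61.0 CPM).

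**Figure D4:**
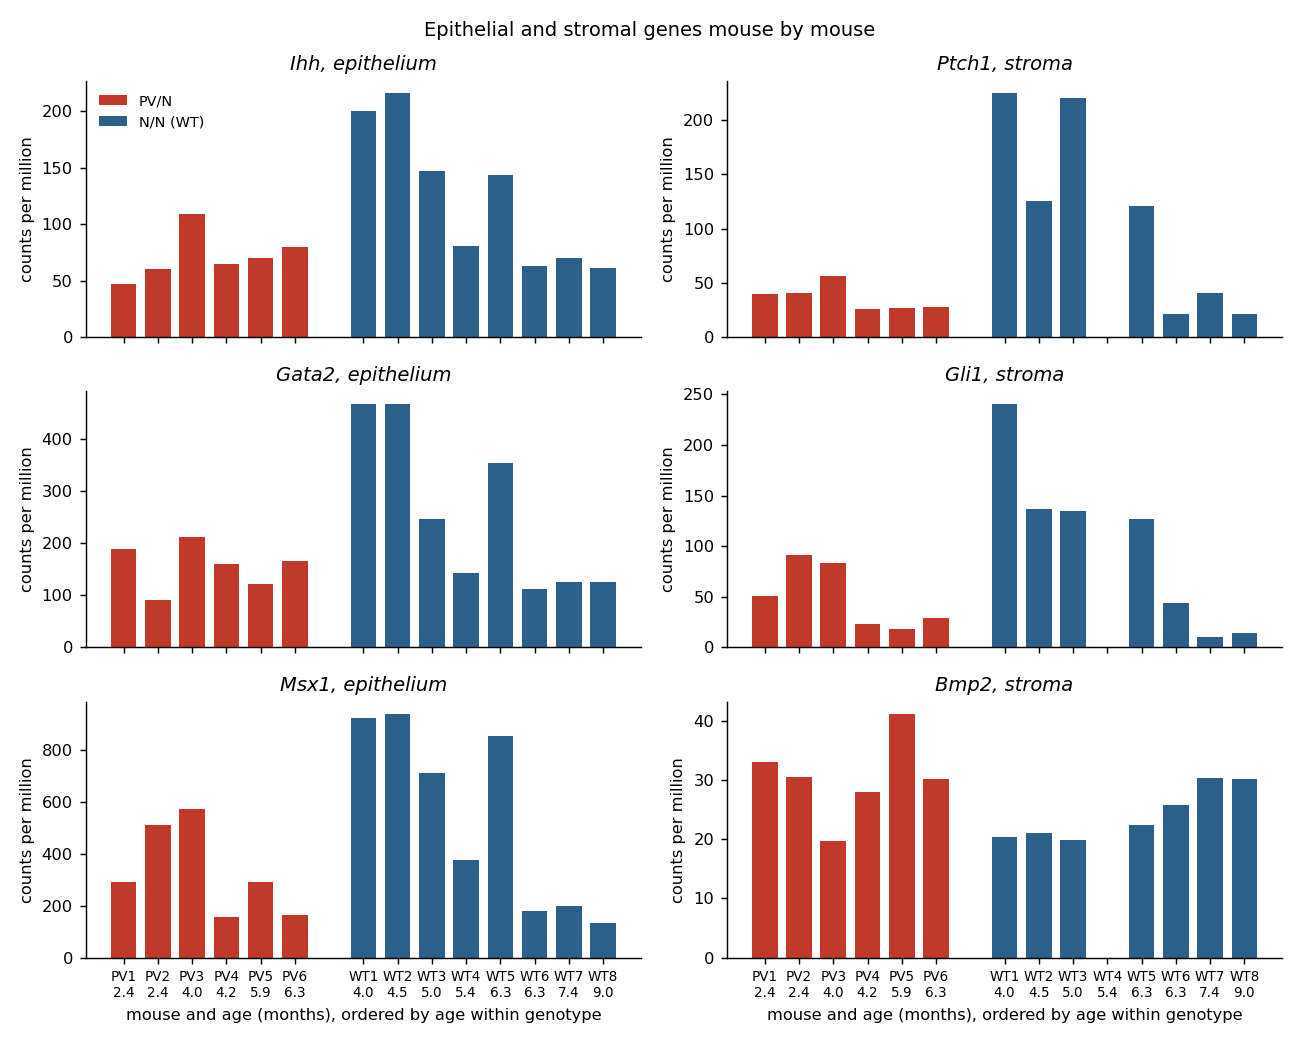
CPM in each mouse (bars, linear axes from 0) of epithelial Ihh, Gata2 and Msx1 on the left and stromal Ptch1, Gli1 and Bmp2 on the right, with mice ordered by age within genotype and age in months under each name; WT4 has no stroma bar. WT1, WT2, WT3 and WT5 stand above the other mice in 5 of the 6 panels, and in stromal Bmp2 they lie at 19.9 to 22.5 CPM.

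Whether epithelial Ihh tracked stromal genes across mice was examined for 5 genes. The 13 mice with both compartments were split at the widest gap in stromal Ptch1, 1.09 on the log2 scale. This gave a cluster of 4 WT mice at 120 CPM or more and a cluster of 9 mice at 56.2 CPM or less. The next widest gap, 0.81, lay within the 4 WT mice, and the split was not part of the plan. Because of this split the correlation planned over all mice is not given. The 4 WT mice also had the highest epithelial Ihh, at 143 CPM or more against 109 CPM or less in the 9. Values within the 9 or within PV/N mice therefore cannot decide whether Ihh tracked these genes over all mice. Within the 6 PV/N mice, Pearson's r of epithelial Ihh with stromal Ptch1 was 0.30 and Spearman's rho 0.14 (exact permutation p = 0.546 and 0.803). With Gli1 r was 0.11 and rho -0.14 (exact p = 0.831 and 0.803), with Nr2f2 0.39 and 0.26 (exact p = 0.447 and 0.658), with Hand2 -0.10 and -0.09 (exact p = 0.856 and 0.919), and with Bmp2 -0.65 and -0.54 (exact p = 0.136 and 0.297). After Benjamini-Hochberg adjustment over the 5 relations the lowest exact p for r was 0.681. The cluster of 9 mice (6 PV/N and 3 WT) was set by its stromal Ptch1, itself 1 of the genes correlated, so its r is a description with no test: 0.37 for Ptch1, 0.12 for Gli1, 0.31 for Nr2f2, -0.01 for Hand2 and -0.58 for Bmp2. Without PV3 and PV1, the mice of the 9 farthest from the median of Ihh, r was 0.11, -0.33, -0.15, -0.52 and 0.28 in the same order. The 4 mice of the other cluster are too few for a correlation of their own.

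Single regions of WT mice show the same layout of mice. For epithelial Ihh in WT mice 87.6% of the variance of the Q3-normalised values on the log2 scale lay between mice (random effects), and for stromal Ptch1 90.5%, against 45.3% and 41.2% in PV/N mice. In WT1 the 3 epithelium regions lay at 111 to 122 Q3 units of Ihh and in WT8 the 4 regions at 31.6 to 44.2. The 15 epithelium regions of PV4 ran from 22.8 to 56.7. Stromal Gli1 also differed within mice: 10 regions of PV4 ran from 4.71 to 46.4 Q3 units and 3 regions of WT5 from 27.6 to 137.

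**Figure D5:**
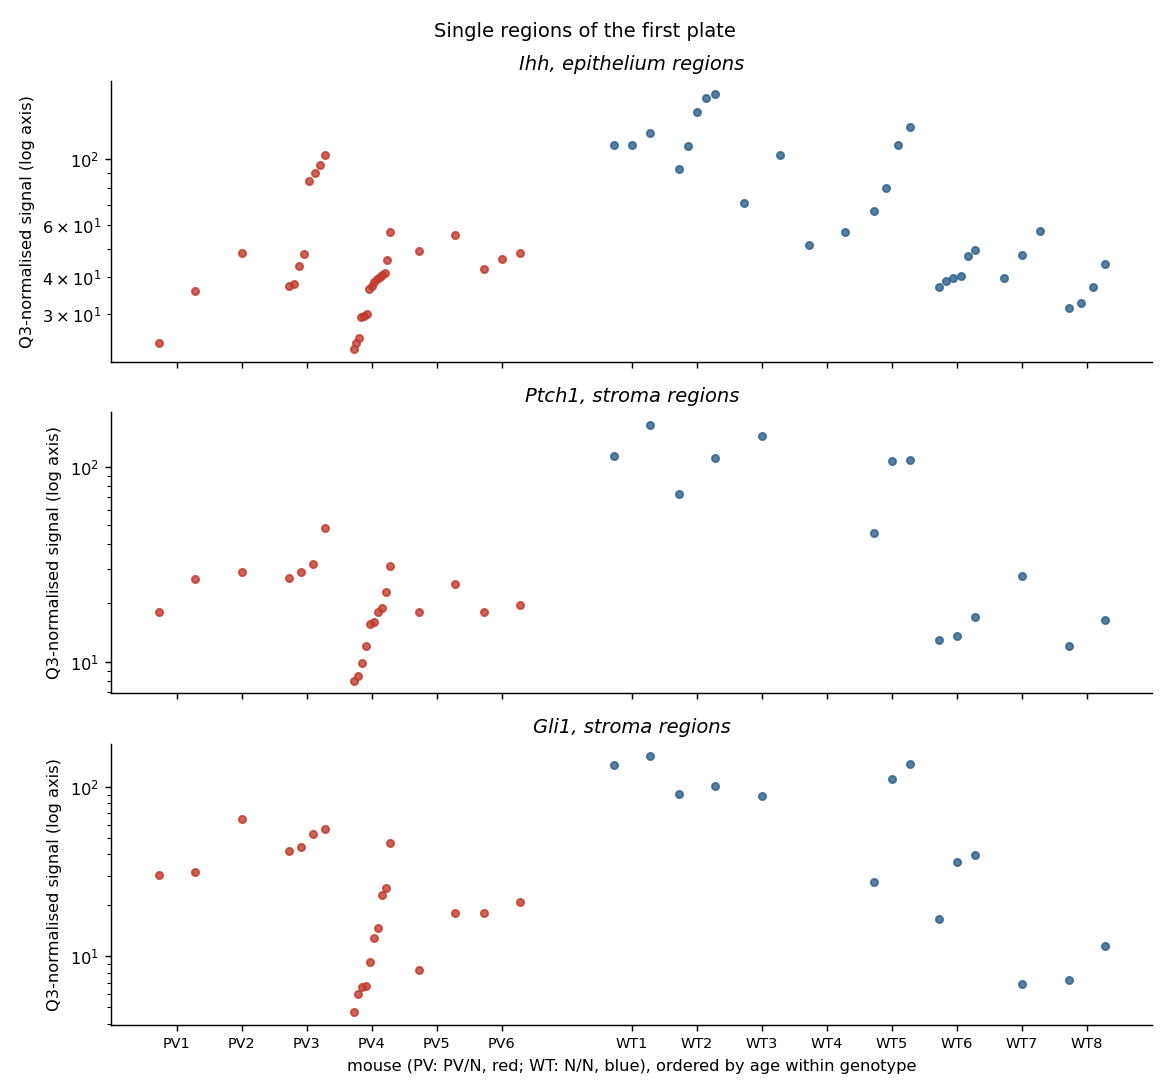
Q3-normalised signal (log axes) of each first-plate region for Ihh in epithelium and Ptch1 and Gli1 in stroma, grouped by mouse, with PV/N in red and WT in blue. Ihh regions lie at 111 to 122 in WT1 and 31.6 to 44.2 in WT8 but spread from 37.4 to 103 in PV3. The 10 stroma regions of PV4 spread from 4.71 to 46.4 for Gli1.

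The genes whose level followed each member most closely are given as a description of these mice. Over 14 epithelium sums the closest to Ihh were Mfap4 (r = 0.97), Hacd3 (0.96) and Lum (0.94), of which Lum and Mfap4 are genes of connective tissue. The summed level of 10 fibroblast markers in epithelium was 555 to 1811 CPM in WT and 465.6 to 1556 CPM in PV/N mice, with WT3 and WT1 highest at 1811 and 1773 CPM. This sum was 1180 CPM in WT2, which had the highest epithelial Ihh, and 1556 CPM in PV6, with 80.0 CPM of Ihh. Its part in the epithelial Ihh level was not tested. Among members, Gata2 had r = 0.89 with Ihh, Msx1 0.81 and Sox17 0.80. The closest to Gata2 were Gstm2, Ap1m1 and Wwp1 (0.94 each), to Sox17 Nf2, Aldh7a1 and Map3k3 (0.94 to 0.93), and to Msx1 Ap1s3, Gstm1 and Pacsin3 (0.94 to 0.93).

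Over 13 stroma sums those close to Ptch1 included Lsm7 (r = 0.93) and Top1mt (0.91). Gli1 and Ptch1 had r = 0.83 with each other, and the closest to Gli1 were 2410002F23Rik, Pknox1 and Micall1 (0.92 to 0.91). For Nr2f2 they were Rbms3, Chd4 and Rab24 (0.89 to 0.88), for Hand2 Ccnt1, Mamdc2 and Brf1 (0.88 to 0.86), and for Bmp2 Wdr93, Npr1 and Tubb2b (0.93 to 0.87). Areg had Zfp438, Calca and Glipr1l1 (0.90 to 0.89) at a level near background.

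Markers of other cells are given beside the stromal values. The 10 fibroblast markers summed to 2803 to 17465 CPM in PV/N and 5478 to 12554 CPM in WT stroma. The 8 smooth muscle markers summed to 549 to 1770 CPM and 438 to 1332 CPM, and 12 columnar markers to 196 to 636 CPM and 206 to 453 CPM. In stroma 6 of 7 kept smooth muscle, 7 of 8 endothelial and 9 of 12 columnar markers were higher in PV/N mice. Their median log2 fold changes were 0.76, 0.32 and 0.26, with 2, 1 and 2 higher at an unadjusted p under 0.05 in edgeR. Of 10 fibroblast markers 6 were higher and 4 lower (median 0.007), and none of these markers was called. Of 10 squamous markers 2 passed the filter, and their sum over the list in epithelium was 78.0 to 484 CPM in PV/N, highest in PV5, and 75.3 to 128 CPM in WT mice. The part of these cells in the members' levels was not tested. Of the 12 columnar, 10 fibroblast, 8 smooth muscle and 8 endothelial markers, 0 stood at the floor count of 1 in every region of a group.

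Promoter windows of 300 bases (RefSeq, GRCm38.p6) were at hand for 7 of the 10 members. None held the GLI core site GACCACCC, which 0.932% of all genes with a window hold, or the hexamer AGAACA that the progesterone receptor binds, which 21.3% hold, on either strand.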

How the data were processed

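The deposited count table holds expected counts per target and region, with 0 shown as 1 by the authors, for GeoMx whole-transcriptome probes. The deposited normalised table holds signal values, for which the authors divided the counts of a region by its upper quartile (Q3). R 4.1.2 and mm10 stand in the submitters' processing notes. Authors' comparisons were not used. The labels name 14 animals and the design text 13; the 14 were used, and ages without a unit were read as months. Members, lists and tests were chosen with earlier results of these data known.

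First-plate counts were summed per mouse and compartment, rounded and tested over 14881 targets with the quasi-likelihood test of edgeR 4.0.16 (R 4.3.3, TMM, two-sided, Benjamini-Hochberg adjusted p under 0.05); SEs are the log2 fold change over the root of F, and 95% intervals use the normal quantile. CPM use TMM; log2 CPM use a prior count of 2. Mice are the replicates. Compartments were paired by animal, as in the labels. Deviations of both compartments of a mouse from group means correlated at 0.16 to 0.53 over the 13 mice (median 0.30). In 7 of the 13 the best match was the other compartment of the same mouse. Exact tests permuted mice (scipy 1.17.1). Alternatives used DESeq2 1.42.0 and limma 3.58.1. On simulated counts, 86% of 100 targets changed by 1 on the log2 scale were called in epithelium and 81% in stroma. The simulation gave every target the same spread between mice, below the fitted common values (biological coefficient of variation 0.30 in epithelium, 0.28 in stroma). Only targets with higher counts were changed, so these shares do not apply to members with few counts or a wider spread. All members were named; other list genes if called, at most the 5 of lowest p; likeness was Pearson's r, top 3. Some genes that this rule names are not reported here.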

Additional observations from a re-analysis of the deposited data

Results flagged for a closer look

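In 40 sets of mice (10 genes, 2 compartments, 2 genotypes) the highest or lowest mouse was set against the rest, and 4 stood apart by Dixon's criterion, while chance gives about 1 in 20. Areg in WT epithelium was 26.7 CPM in WT5, on 44 counts over 4 regions, against 5.24 to 10.3 CPM in the other 7 mice. Bmp2 in PV/N epithelium was 26.9 CPM in PV5, on 25 counts, against 10.7 to 15.0 CPM in the other 5. PV5 also had the highest sum of squamous markers in epithelium, 484 CPM. Hand2 in PV/N epithelium was 39.2 CPM in PV4, on 412 counts over 15 regions, against 14.5 to 20.3 CPM. Ihh in PV/N stroma was 20.3 CPM in PV2, on 2 counts from 1 region, against 45.5 to 63.9 CPM. Causes were not tested.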

How the results depend on the processing

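Members called in the genotype comparisons and in the genotype by compartment term stayed at 0 in every planned setting. Those between compartments stayed at 8 when each mouse was left out, beside 8735 to 9393 of all 14881 targets. The compartment calls over all mice and in WT mice fell to 0 on the second plate alone, where many labels go against the markers, and those in PV/N mice fell to 0 on it and on both plates together; in each of these fits 0 of all 14881 targets were called by edgeR (661, 453 and 1391 at an unadjusted p under 0.05 on the second plate for all, WT and PV/N mice, and 1951 for PV/N mice on both plates). Without the replicate block, that is without pairing by mouse, 8 members were called between compartments, beside 7903 of all 14881 targets. For the genotype by compartment term 0 members and 0 of all targets were called without it, and the term for Msx1 turned from -0.0028 to 0.022. With both plates the Ihh change between compartments was 0.29 (edgeR adjusted p = 0.324), and in WT mice 0.62 (adjusted p = 0.0843). Over regions, limma called Ihh between compartments in PV/N mice (limma adjusted p = 0.0181), beside 9725 of all 14881 targets.

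Changes of direction concerned small or uncalled values, apart from the second plate; values are log2 fold changes. With both plates these were, for Bmp2, 0.11 in epithelium, -0.012 in stroma and 0.15 for the term; for stromal genotype, Gata2 0.60, Ihh 0.0074 and Msx1 0.67; for the term, Nr2f2 0.28; between compartments in PV/N mice, Ihh -0.038 and Ptch1 -0.10; and, for r with epithelial Ihh over the cluster of 9 mice, Ptch1 -0.37, Gli1 -0.041 and Nr2f2 -0.076. On the second plate alone they were Bmp2 0.20 and Ihh -0.084 between compartments, Ihh -0.38 and Ptch1 -0.34 in PV/N mice, Bmp2 0.28 for epithelial genotype, Bmp2 -0.20, Gata2 0.95, Hand2 -0.24, Ihh 0.0090 and Msx1 0.73 for stromal genotype, and Bmp2 0.50, Hand2 0.075 and Nr2f2 0.37 for the term. With age they were Bmp2 0.0023 in epithelium and Hand2 -0.25 and Sox17 -0.17 in stroma. With all targets Hand2 was 0.049 in epithelium and the term for Msx1 0.0245, and with filterByExpr 0.048 and 0.0243. With limma on means the terms were Msx1 0.15 and Nr2f2 0.049 and stromal Sox17 -0.00022, over regions stromal Sox17 -0.057, and with at least 2 regions Hand2 0.0041, Msx1 0.068 and Sox17 -0.082. After subtraction of the negative probe the terms were Gli1 -0.034 and Msx1 0.26. Without PV3 and PV1, r was -0.33 for Gli1, -0.15 for Nr2f2 and 0.28 for Bmp2.

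With each mouse left out, Hand2 in epithelium ran from -0.39 to 0.11, stromal Gata2 from -0.28 to 0.052, Nr2f2 from -0.31 to 0.011 and Sox17 from -0.041 to 0.38, and the terms for Gli1 from -0.12 to 0.47 and Msx1 from -0.15 to 0.17. The causes were not tested. A correlation within WT mice alone was not run, since their clusters hold 4 and 3 mice. Depth limits Areg, Bmp2 and epithelial Gli1, which lie near the negative probe, and all values of PV2. Epithelial Hand2 and stromal Msx1 also lay near the negative probe in part of the regions. For epithelial Hand2, 22 of 31 PV/N and 19 of 29 WT regions exceeded 3 times the negative probe. For stromal Msx1, 11 of 21 PV/N and 11 of 14 WT regions did.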
